A study of Homo sapiens with 12 samples.

Results

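The cell line OCI-AML3 was derived from a human acute myeloid leukaemia and is in wide use. In the series, heme synthesis in these cells was limited by a drug or by a guide RNA, and each arm had a control group of its own. The comparison described here sets those 2 control groups against each other. One is vehicle, the drug-arm control, harvested after 6 days. The other is sgSCR, cells with a scrambled guide that received doxycycline for 7 days. Each group has 3 libraries, so that 6 of the 12 libraries of the series belong to the comparison. The remaining 6 are SA, a compound given at 500 µM for 6 days and not spelled out in the labels, and sgALAS1, a guide against ALAS1 with doxycycline for 7 days. All 4 groups are OCI-AML3. The labels name no doxycycline for the drug arm and do not say whether vehicle cells carry a guide or Cas9. Guide, doxycycline and days in culture therefore change together between the groups, and their parts in any difference cannot be told apart. The comparison answers how far the controls of the 2 arms differ from each other.

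A scrambled guide is designed to match no gene and serves as the blank of a CRISPR experiment. Doxycycline is a tetracycline antibiotic that switches on inducible transgenes. It blocks the bacterial ribosome and, at higher exposure, can also slow the mitochondrial ribosome, which translates the few proteins encoded by mitochondrial DNA. Cells under mitochondrial or nutrient stress commonly induce the integrated stress response, in which the factor ATF4 raises genes of amino acid supply. Low oxygen acts through the HIF factors, which raise glycolysis, and low sterol acts through SREBP factors, which raise cholesterol synthesis.

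Expression was read by QuantSeq, a method that reads 1 tag per transcript next to its poly(A) tail. The vehicle libraries held 7339843, 5657923 and 5342403 assigned reads and the sgSCR libraries 5083276, 6454638 and 5999811. The table lists 57905 gene identifiers, of which 13832 passed the low-count filter. Levels are in normalised CPM, the reads of a gene scaled to the size of its library. Changes are log2 fold changes of sgSCR over vehicle with their standard error (SE), and every adjusted p-value is that of edgeR's quasi-likelihood test, with a threshold of 0.05. Whether replicates came from separate cultures is not in the labels, so a p-value here covers the spread among these libraries and no more. In bulk RNA, fewer cells of a kind and less RNA per cell cannot be told apart. The first principal component of the 6 libraries held 30.3% of the variance and separated the groups, with vehicle between -28.2 and -11.7 and sgSCR between 7.15 and 37.7. All 12 markers listed for a myeloid leukaemia line were testable, and 1 of them, LYZ, passed the test. Of 16 erythroid and megakaryocyte markers 2 had enough reads to be tested, and 8 had no read in the 6 libraries.

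The vehicle libraries differed among themselves in stress genes. The summed level of the list of integrated stress response regulators was 2169, 2395 and 1427 CPM in vehicle replicates 1 to 3 and 1174, 1604 and 1310 CPM in sgSCR. Vehicle replicate 3 thus lay inside the sgSCR range, and sgSCR replicate 1 was the lowest of the 6 libraries. Results on that list and its target genes are given below with each library left out.

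In all, 198 genes passed the test, or 1.43% of those tested. Of these, 65 were higher in sgSCR (0.47%) and 133 lower (0.962%), and 21 rises and 47 falls exceeded 2-fold. Some called identifiers overlap, and pairs such as FDPS and RUSC1-AS1 carried nearly the same reads. The counts may therefore hold the same reads more than once. The 3 and 3 libraries did not overlap for 184 of the 198. The 198 were called on these same libraries, so that count was favoured in advance. Over all tested genes 8.42% lay wholly higher in sgSCR and 8.73% wholly lower. Scaled by library totals without TMM, the calls were 53 higher and 202 lower, with a median over all genes of -0.05 against 0.01 with TMM. Leaving out 1 library moved the total to between 86 (without sgSCR replicate 1) and 278 (without vehicle replicate 1), and it was 106 without vehicle replicate 2. Across the 6 fits with 1 library left out, 65 of the 198 genes were called each time.

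**Figure D1:**
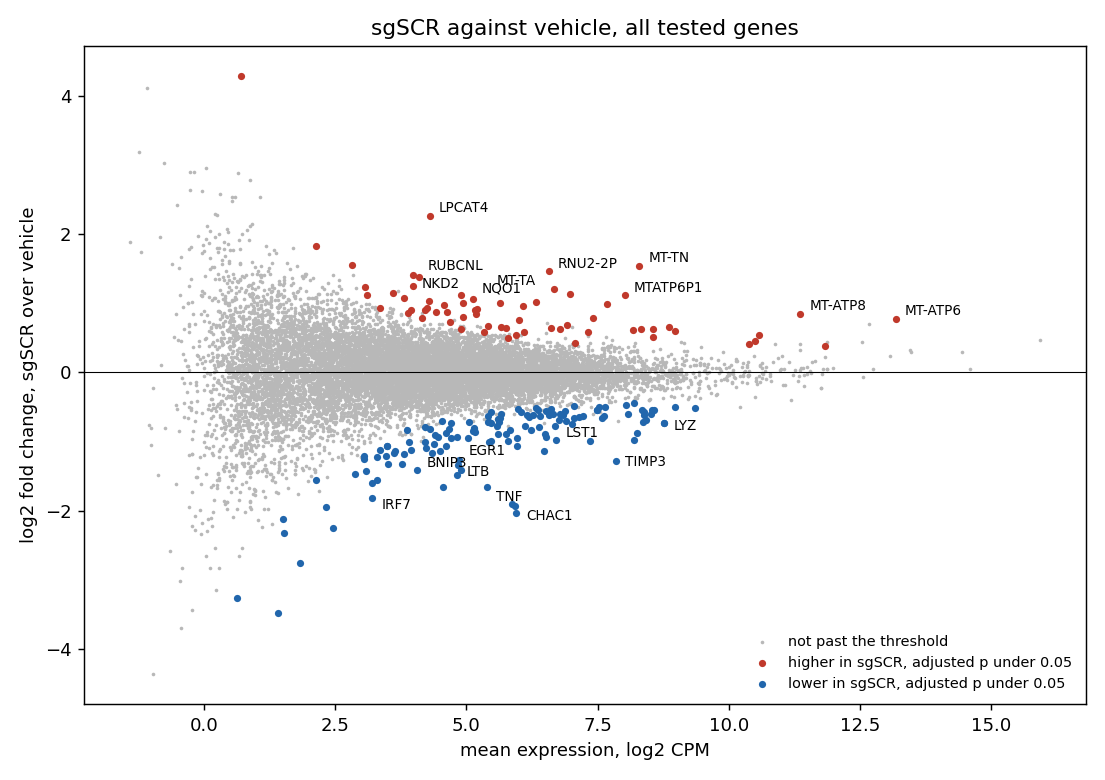
Log2 fold change of sgSCR over vehicle (vertical axis) against mean expression in log2 CPM (horizontal axis) for the 13832 tested genes; grey points did not pass the test, red points were higher in sgSCR and blue points lower. Of the coloured points 133 lie below 0 and 65 above it, and MT-ATP6 and MT-ATP8 are the most expressed of the labelled genes.

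The gene that the study targets was measured first. ALAS1 (ENSG00000023330, chromosome 3) encodes the enzyme that sets the pace of heme production in cells other than red cells. It stood at 37.5, 36.4 and 31.1 CPM in vehicle and at 38.6, 42 and 37.4 CPM in sgSCR (log2 fold change 0.17, SE 0.14, adjusted p = 0.695). The groups overlap, and no change was called with a guide that targets no gene. None of the 8 tested members of the heme synthesis list passed the test. Their median was 0.16 beside 0.01 for all genes, and CPOX, which makes a late porphyrin, was the member with the highest value (0.44, adjusted p = 0.42). ALAD, UROS, PPOX and FECH gave 0.15, 0.25, 0.35 and 0.04, and UROD was closer to 0 still. HMOX1, the heme-degrading oxygenase, was at 2.9, 1.69 and 2.3 CPM in vehicle and 1.59, 1.29 and 1.32 CPM in sgSCR, which did not pass the test (-0.73, adjusted p = 0.555).

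A minority of the regulators and markers of the integrated stress response fell in sgSCR. Of 26 tested members 6 fell and 0 rose, against 0.962% and 0.47% of all tested genes. The median was -0.41, and 20 of the 26 values were negative. All vehicle libraries exceeded all sgSCR libraries in 3 of the 26 (8.73% of all tested genes), and the reverse layout was seen in 3 others (8.42%). CHAC1 (ENSG00000128965, chromosome 15) encodes an enzyme that breaks down glutathione and is a classic ATF4 target. Its level was 189.8, 189 and 55 CPM in vehicle and 13.9, 61.2 and 29.9 CPM in sgSCR (log2 fold change -2.03, SE 0.34, adjusted p = 6.3e-04). Vehicle replicates 1 and 2 were far above all sgSCR libraries, whereas vehicle replicate 3 lay below sgSCR replicate 2. DDIT4, an inhibitor of mTOR signalling, had the same layout, with 139, 232 and 51.1 CPM in vehicle and 16.9, 68.2 and 25 CPM in sgSCR (-1.93, adjusted p = 0.00184). An antisense transcript on the other strand, DDIT4-AS1, carried nearly the same reads, and as no source used here gives the strand setting of the counting, the 2 transcripts cannot be told apart. SESN2, a sensor of leucine, was at 176, 168 and 72.5 CPM against 45.4, 82.3 and 62.3 CPM (-1.13, adjusted p = 0.00299). These 3 calls held with each library left out.

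ATF4 itself (chromosome 22) was at 466, 533 and 303 CPM in vehicle and 204, 314 and 276 CPM in sgSCR, a fall of 0.71 on the log2 scale (SE 0.16, adjusted p = 0.0111). Its groups overlap, and the call was lost without sgSCR replicate 1 or vehicle replicate 2, where the adjusted p reached 0.142. STC2, a secreted glycoprotein, and PPP1R15A, the phosphatase subunit that shuts the response off, were the other called members, at -1.48 and -0.73, and neither was called in every fit with a library left out (adjusted p up to 0.22 and 0.116). STC2 was not called with DESeq2 either (adjusted p = 0.163). DDIT3, the stress factor CHOP, did not pass the test, at 83, 114 and 63 CPM against 57.2, 81.8 and 58.5 CPM (-0.40, adjusted p = 0.311). Without sgSCR replicate 1 or vehicle replicate 2 the number of members that fell was 3, and without vehicle replicate 3 it was 7.

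Some genes of amino acid supply, many of them ATF4 targets, fell too. Of 11 amino acid transporters 3 fell, with a median of -0.57, where 0.962% of all tested genes fell. SLC38A2 (chromosome 12), which imports small neutral amino acids, was at 169, 190.2 and 144 CPM in vehicle and 91.8, 114 and 95.4 CPM in sgSCR (-0.74, SE 0.12, adjusted p = 8.52e-04). Every vehicle library exceeded every sgSCR library, as it did for SLC38A1, a glutamine importer (-0.83, adjusted p = 0.00229). SLC7A11, the cystine importer, was at 41.1, 77.5 and 19.3 CPM against 8.77, 14.5 and 20 CPM (-1.66, adjusted p = 0.00522), with overlap between the groups, and was not called without sgSCR replicate 1 or vehicle replicate 2 (adjusted p up to 0.165), nor with DESeq2 (adjusted p = 0.0748). Of 17 enzymes of amino acid synthesis PSPH, GPT2 and MTHFD2 fell (-0.85, -0.88 and -0.60), which act in serine, alanine and mitochondrial folate metabolism. In 1 of the 17 all vehicle libraries exceeded all sgSCR libraries, against the 8.73% of all tested genes. The summed level of the 17 was 1798, 2268 and 1260 CPM in vehicle and 1026, 1538 and 1325 CPM in sgSCR, so that vehicle replicate 3 lay inside the sgSCR range. MTHFD2 overlaps SLC4A5 on the other strand. Of 20 cytosolic aminoacyl-tRNA synthetases, which load tRNAs with amino acids, GARS1 and WARS1 fell (-0.70 and -0.66). ASNS, asparagine synthetase, was at 126, 202 and 49.7 CPM against 50.2, 104 and 73.2 CPM and did not pass the test (-0.73, adjusted p = 0.199). Without sgSCR replicate 1 or vehicle replicate 2 the transporters had 2 falls and the synthesis enzymes and the synthetases 0 each. Without vehicle replicate 3 the counts were 7, 7 and 5.

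The promoter of CHAC1 is shown because CHAC1 was the only called member of these lists with a promoter at hand that holds an ATF-type motif. The stretch is taken from RefSeq on GRCh38.p14, plus strand, chr15:40953232-40953299, from 239 to 172 bases before the gene's start, and capitals mark the motif.
CHAC1: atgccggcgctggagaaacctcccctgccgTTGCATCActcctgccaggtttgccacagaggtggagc
The motif searched was TGATGNAA, the C/EBP-ATF response element, on both strands of the 250 bases before the start, and here it is read on the opposite strand. It occurred in 1.47% of the 9729 promoters of tested genes and in 3.19% of all 27305. Of 60 members of the stress and amino acid lists for which a promoter was at hand, 7 held it (11.7%), and among the 11 called members with a promoter CHAC1 alone did. Members were listed as stress and amino acid genes, so a share above that of all promoters may come from the choice. A match describes letters in this window and shows no binding.

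Some glycolysis enzymes and genes of the hypoxia response fell in sgSCR as well. Of 25 genes of glycolysis and glucose transport 5 fell and 0 rose, against 0.962% and 0.47% of all tested genes. Of the 25 values 22 were negative, and the median was -0.34. In 12 of the 25 all vehicle libraries exceeded all sgSCR libraries, against the 8.73% of all tested genes. LDHA (ENSG00000134333, chromosome 11), which turns pyruvate into lactate, was at 437, 421 and 451 CPM in vehicle and 247, 292 and 270.1 CPM in sgSCR (-0.69, SE 0.11, adjusted p = 2.59e-04). The SA libraries stood at 272, 284 and 294 CPM and the sgALAS1 libraries at 242, 250 and 221 CPM, so that vehicle was the highest of the 4 groups. ALDOC, the brain-type aldolase, was at 63.7, 68.4 and 57.2 CPM against 21.9, 43.9 and 29.3 CPM (-0.99, SE 0.18, adjusted p = 0.00229). An antisense identifier overlaps it. TPI1, which interconverts the 2 triose phosphates, was at 496, 418 and 465 CPM against 317, 314 and 318 CPM (-0.54, adjusted p = 0.00316). ALDOA (-0.50) and PGK1 (-0.60) also fell, and PGK1 was not called without sgSCR replicate 1 or vehicle replicate 2 (adjusted p up to 0.0775). With single libraries left out, 4 to 6 members fell.

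Outside glycolysis, 6 of 20 hypoxia genes fell, with a median of -0.34, where 0.962% of all tested genes fell. BNIP3 (chromosome 10), which marks mitochondria for removal, was at 29.2, 32.5 and 20.7 CPM in vehicle and 6.77, 11.9 and 12.1 CPM in sgSCR (-1.41, SE 0.26, adjusted p = 0.0023). Its relative BNIP3L was at 93.5, 114 and 96.1 CPM against 48.8, 72.8 and 48.6 CPM (-0.83, adjusted p = 0.00229). Neither gene's groups overlap, and both were called with each library left out. A processed pseudogene of BNIP3 was called too, and reads could be split between the copies. VEGFA, the vascular growth factor, was at 32, 41.5 and 20.7 CPM against 8.96, 19.3 and 13.2 CPM (-1.17, adjusted p = 0.0129). AK4, a mitochondrial adenylate kinase, ZNF395 and P4HA1, a collagen prolyl hydroxylase, fell by 0.81, 0.67 and 0.68 on the log2 scale. Without sgSCR replicate 1 or vehicle replicate 2 the 4 genes VEGFA, AK4, ZNF395 and P4HA1 were not called (adjusted p up to 0.179, 0.198, 0.214 and 0.0979), which left 2 falls, and without vehicle replicate 3 there were 7.

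Promoters of LDHA and ALDOC are shown because they are the called members with the smallest p-values that hold the core of the hypoxia response element. Both stretches are from RefSeq on GRCh38.p14, written 5′ to 3′ on the gene's strand, and capitals mark the matches. LDHA covers chr11:18394348-18394524 on the plus strand, 215 to 39 bases before the start, and ALDOC covers chr17:28576896-28577145 on the minus strand, 250 to 1 bases before it.
LDHA: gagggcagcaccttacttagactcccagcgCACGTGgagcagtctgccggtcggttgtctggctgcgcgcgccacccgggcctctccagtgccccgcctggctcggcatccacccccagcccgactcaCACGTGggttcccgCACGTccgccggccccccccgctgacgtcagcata
ALDOC: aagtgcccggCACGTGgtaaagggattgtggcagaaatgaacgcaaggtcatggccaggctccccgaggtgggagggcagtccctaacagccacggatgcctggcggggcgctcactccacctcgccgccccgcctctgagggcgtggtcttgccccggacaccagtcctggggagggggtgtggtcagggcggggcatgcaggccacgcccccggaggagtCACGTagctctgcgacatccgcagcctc
The letters searched were ACGTG on both strands, and a run of CACGTG, which is also the E-box, counts once on each strand. Counted so, the LDHA promoter held 5 matches and that of ALDOC 3. The core was present in 23.9% of the promoters of tested genes and in 18.7% of all. Among the members of the glycolysis and hypoxia lists 19 of 38 promoters held it (50%), and among the called members 7 of 8, namely AK4, ALDOA, ALDOC, BNIP3, LDHA, P4HA1 and PGK1. Members were listed as glycolysis and hypoxia genes, so a share above that of all promoters may come from the choice. A match shows no binding, and HIF action was not tested.

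A few genes of lipid synthesis also fell in sgSCR. Of 24 cholesterol synthesis genes 5 fell and 0 rose, against 0.962% and 0.47% of all tested genes. The median was -0.22, and 23 of the 24 values were negative. HMGCS1 (chromosome 5), an early enzyme of the pathway, was at 109, 141 and 155 CPM in vehicle and 82.5, 71.2 and 84.3 CPM in sgSCR (-0.77, SE 0.14, adjusted p = 0.00232). Every vehicle library exceeded every sgSCR library, and the call held with each library left out. FDPS, which makes farnesyl diphosphate, and CYP51A1, the lanosterol demethylase, fell by 0.63 and 0.54 on the log2 scale. FDPS was not called without sgSCR replicate 1 (adjusted p = 0.0654), nor CYP51A1 without sgSCR replicate 1, sgSCR replicate 2 or vehicle replicate 3 (up to 0.152). The number of cholesterol genes that fell was 2 without sgSCR replicate 1 and 4 or 5 with any other library left out. Of 13 fatty acid genes the desaturases SCD, FADS2 and FADS1 fell (-0.57, -0.62 and -0.44). Each of the 3 lost its call with some libraries left out, among them sgSCR replicate 1 in each case (adjusted p up to 0.0921, 0.12 and 0.228), and the number of falls was then 0 to 2. HMGCS1 and FDPS overlap other called identifiers. FADS1 and FADS2 overlap each other on opposite strands, so their falls may share reads. The sterol response element searched, TCACNCCAC, was present in 0.874% of the promoters of tested genes, in 1 of 30 matched members and in 0 of 6 called ones.

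**Figure D2:**
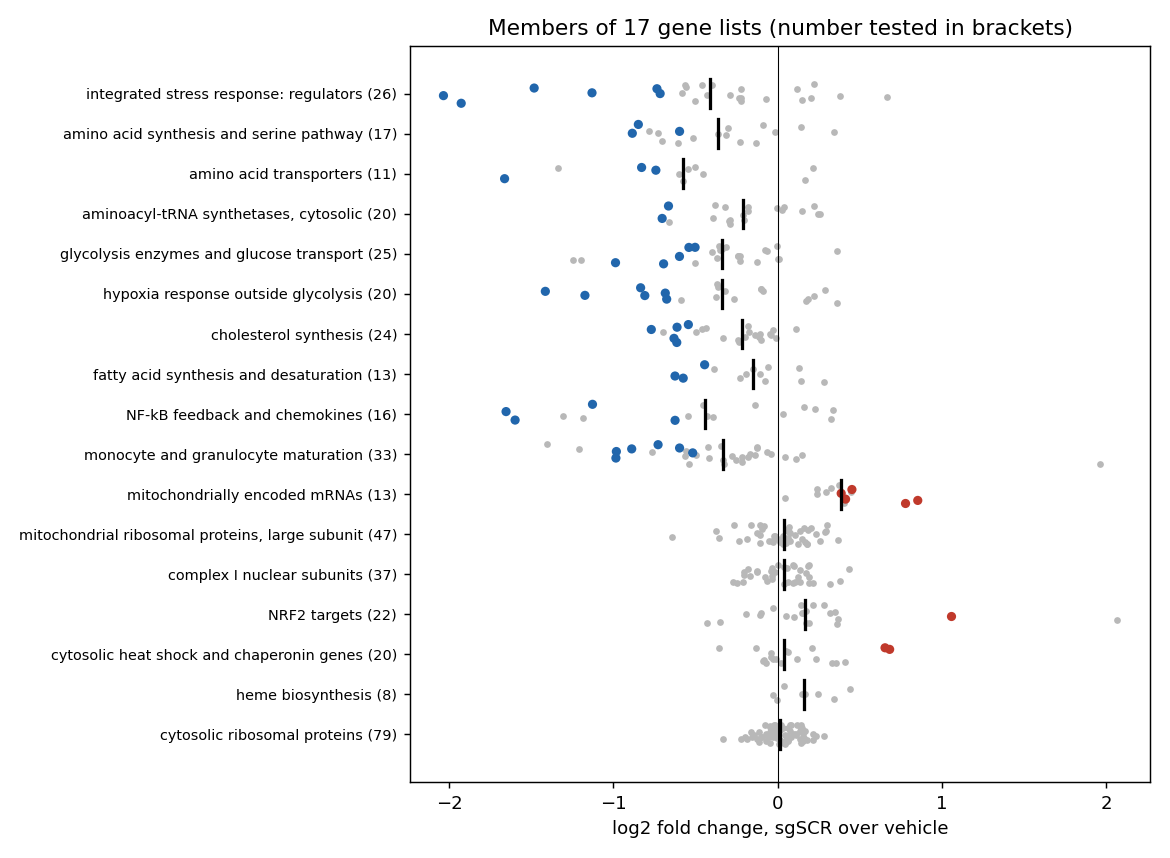
Log2 fold change of sgSCR over vehicle (horizontal axis) for the members of 17 gene lists (vertical axis, number of tested members in brackets); each point is a gene, blue and red points passed the test as lower or higher, and the black bar is the list's median. Medians of the 4 stress and amino acid lists lie between -0.57 and -0.21, that of the mitochondrially encoded mRNAs is 0.39, and those of cytosolic and large mitochondrial ribosomal proteins are 0.02 and 0.04.

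Transcripts of mitochondrial DNA took a larger share of the reads in sgSCR than in vehicle. Mitochondrial transcripts took 12.7, 11.4 and 11.7% of the reads in vehicle and 14, 15.2 and 13% in sgSCR, without overlap. The share was 13.8, 13.1 and 13.8% in SA and 13.7, 13.9 and 14.7% in sgALAS1, and vehicle was the lowest group. All 13 mitochondrially encoded mRNAs had positive values, with a median of 0.39, and 5 passed the test (0.47% of all tested genes rose). In SA against vehicle 7 of the 13 rose and 0 fell (4.83% and 6.24% of all tested genes). In 10 of the 13 every sgSCR library exceeded every vehicle library, against the 8.42% of all tested genes. The largest rises were in the neighbouring, overlapping genes of 2 ATP synthase subunits. MT-ATP6 was at 6892, 6897 and 7559 CPM in vehicle and 10310, 14180 and 12150 CPM in sgSCR (0.78, SE 0.11, adjusted p = 6.47e-05). MT-ATP8 was at 2111, 1726 and 2071 CPM against 4149, 3633 and 2892 CPM (0.85, SE 0.13, adjusted p = 2.33e-04). Both were called with each library left out. MTATP6P1, a nuclear pseudogene on chromosome 1 that resembles MT-ATP6, rose in parallel (1.12), and its reads may belong to the mitochondrial gene.

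The other mitochondrial mRNAs showed smaller values. MT-CYB, the cytochrome b gene, was at 3251, 3154 and 3153 CPM in vehicle and 3805, 4753 and 3945 CPM in sgSCR (0.39, SE 0.10, adjusted p = 0.0392). MT-ND1 and MT-ND4L, subunits of complex I, rose by 0.45 and 0.41. None of these 3 calls held in every fit with a library left out (adjusted p up to 0.242, 0.0844 and 0.242). MT-ND3, another complex I subunit, was at 6659, 7247 and 6604 CPM against 5946, 8458 and 6780 CPM (0.05, adjusted p = 0.916), so the rise was not of equal size over the genome. The count of called mRNAs was 2 without vehicle replicate 2, 8 without vehicle replicate 1 and 3 when scaled by library totals.

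**Figure D3:**
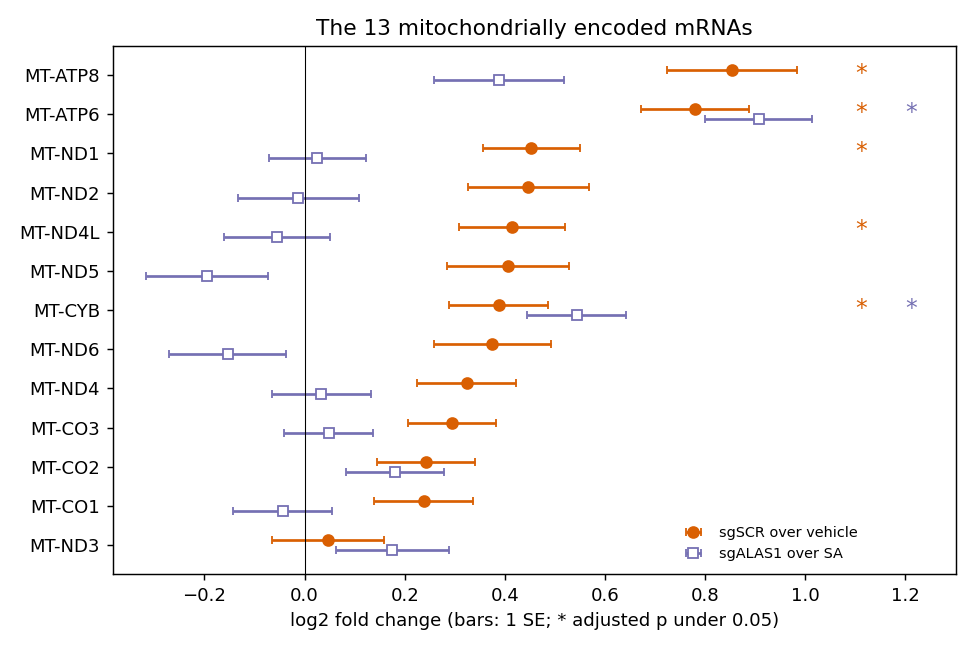
Log2 fold change (horizontal axis, bars of 1 SE) of the 13 mitochondrially encoded mRNAs (vertical axis) for sgSCR over vehicle (filled circles) and sgALAS1 over SA (open squares); asterisks mark an adjusted p under 0.05 in the comparison of that colour. MT-ATP6 lies at 0.78 and 0.91 and MT-CYB at 0.39 and 0.54 in the 2 comparisons, whereas MT-ND1 lies at 0.45 and 0.03.

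In the lists of nuclear genes of the mitochondrion 1 rise was called, where 0.47% of all tested genes rose. Outside these lists BCAT2, described below, and SDHAF4, a complex II assembly factor, rose by 1.15 and 0.94. Neither of these 2 calls held in every fit with a library left out. None of 47 large-subunit and 29 small-subunit mitochondrial ribosomal protein genes passed the test, with medians of 0.04 and 0.05. The same held for 24 mitochondrial transcription and translation factors (0.00), 37 nuclear complex I genes (0.04), 39 nuclear genes of complexes II to V (0.02) and 22 genes of the TCA cycle and pyruvate entry (0.14). Of 21 mitochondrial chaperones and proteases CHCHD10 rose, a small protein of the intermembrane space, from 474, 365 and 395 CPM to 646, 656 and 572 CPM (0.60, SE 0.11, adjusted p = 0.00292). An identifier on the other strand, C22orf15, was called beside it.

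Of the mitochondrial tRNA genes 4 rose and 1 fell, where 0.47% and 0.962% of all tested genes did. MT-TN, the tRNA for asparagine, was at 282, 146 and 150.1 CPM in vehicle and 769, 556 and 364 CPM in sgSCR (1.54, SE 0.26, adjusted p = 7.92e-04). MT-TA, the tRNA for alanine, rose by 1.21, a call lost without sgSCR replicate 1 (adjusted p = 0.0663) and with DESeq2 (adjusted p = 0.0662). MT-TD and MT-TL2, tRNAs for aspartate and leucine, rose by 0.99 and 0.92 (adjusted p = 2.59e-04 and 0.0409), and the call of MT-TL2 was lost in 3 of the 6 fits with a library left out and with DESeq2 (adjusted p = 0.179). MT-TH, the tRNA for histidine, was at 503, 422 and 427 CPM against 337, 337 and 249.5 CPM and fell by 0.55 on the log2 scale (SE 0.12, adjusted p = 0.0129), which was not called without sgSCR replicate 3 (adjusted p = 0.11). Poly(A)-primed libraries capture tRNAs as part of longer precursors or from internal sites, and the counts do not say which. On the nuclear genome, RNU2-2P, a copy of the U2 spliceosomal RNA inside WDR74, was at 72.3, 47.9 and 52.4 CPM against 174, 173 and 131 CPM (1.46, SE 0.18, adjusted p = 9.54e-06), and WDR74 was 2.2-fold higher, but the 2 share their position and strand.

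Some cytokine genes and feedback genes of NF-kB, the main factor of inflammatory transcription, fell in sgSCR. Of 16 tested members 4 fell and 0 rose, with a median of -0.44, against 0.962% and 0.47% of all tested genes. TNF (ENSG00000232810, chromosome 6), the tumour necrosis factor, was at 83.2, 63.8 and 76.6 CPM in vehicle and 25.9, 18 and 27.4 CPM in sgSCR (-1.65, SE 0.16, adjusted p = 5.52e-07). That is 3.14-fold higher in vehicle, with the lowest vehicle library above the highest sgSCR library. CD83, a surface protein of activated antigen-presenting cells, was at 15.4, 17.8 and 14 CPM against 4.38, 3.7 and 7.44 CPM (-1.60, adjusted p = 0.00347). NFKBIA, the inhibitor that NF-kB induces against itself, and IER3 fell by 0.62 and 1.13 on the log2 scale, and neither was called without sgSCR replicate 1 or vehicle replicate 2 (adjusted p up to 0.139 and 0.288), which left 2 falls. IER3 shares nearly the same reads with IER3-AS1 on the other strand. LTB, lymphotoxin beta, a neighbour of TNF on chromosome 6 and outside the list, was at 50.1, 38.1 and 47.4 CPM against 20.9, 14.8 and 17.9 CPM (-1.34, SE 0.20, adjusted p = 2.2e-04).

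Interferon genes were called in both directions. Of 28 tested members 1 rose and 1 fell, against 0.47% and 0.962% of all tested genes, and the median was -0.14. IRF7, the master factor of type I interferon production, was at 18.6, 16.8 and 14.9 CPM in vehicle and 6.17, 4.5 and 3.64 CPM in sgSCR (-1.82, SE 0.29, adjusted p = 3.64e-04). PSMB9, an immunoproteasome subunit, went the other way, from 40.4, 38.4 and 27.1 CPM to 80.7, 76.8 and 55.2 CPM (1.0, SE 0.17, adjusted p = 6.3e-04). Both calls held with each library left out. None of 14 antigen presentation genes passed the test, though 12 of the values were positive and the median was 0.32. EGR1, a zinc finger factor induced by growth signals and counted in the list of transcription factors, was at 36.5, 59.1 and 40.4 CPM against 17.3, 20.7 and 18 CPM (-1.27, SE 0.18, adjusted p = 1.08e-04). Of the 19 members of the immediate early and ERK feedback list 1 fell, SPRY2 (-1.0), whose call was lost without sgSCR replicate 1, sgSCR replicate 3 or vehicle replicate 1 (adjusted p up to 0.119).

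Some genes of monocyte and granulocyte maturation fell in sgSCR. Of 33 tested members 6 fell and 0 rose, against 0.962% and 0.47% of all tested genes. The median was -0.33, and 29 of the values were negative. VCAN (chromosome 5), a matrix proteoglycan made by monocytes, was at 359, 489 and 388 CPM in vehicle and 224, 182 and 219 CPM in sgSCR (-0.98, SE 0.12, adjusted p = 9.54e-06). LST1, a leukocyte surface protein, was at 157, 146 and 140.3 CPM against 77.3, 64.1 and 83.5 CPM (-0.98, SE 0.12, adjusted p = 1.54e-05). CYBB, the catalytic subunit of the phagocyte oxidase, stood at 122, 123 and 123 CPM against 66.9, 54.8 and 77.4 CPM (-0.89, adjusted p = 2.05e-04). LYZ, lysozyme, was at 501, 544 and 646 CPM against 356, 296 and 370.2 CPM (-0.73, adjusted p = 4.02e-04). The groups overlap for none of the 4. LYZ and an unnamed identifier on the other strand carried nearly the same reads, VCAN overlaps VCAN-AS1, and in neither case can the transcripts be told apart. AIF1 and VIM completed the list (-0.60 and -0.52), and VIM was not called without sgSCR replicate 1 or vehicle replicate 2 (adjusted p up to 0.14), where the count was 5. The calprotectin genes S100A8 and S100A9 stood at -0.56 and 0.04 and did not pass the test (adjusted p = 0.376 and 0.971), and 0 of 13 primary granule genes passed the test. The summed level of this list was 4821, 4622 and 4643 CPM in vehicle and 3515, 3603 and 3506 CPM in sgSCR, and that of the 12 myeloid line markers 2479, 2880 and 2777 against 2288, 2341 and 2492 CPM.

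**Figure D4:**
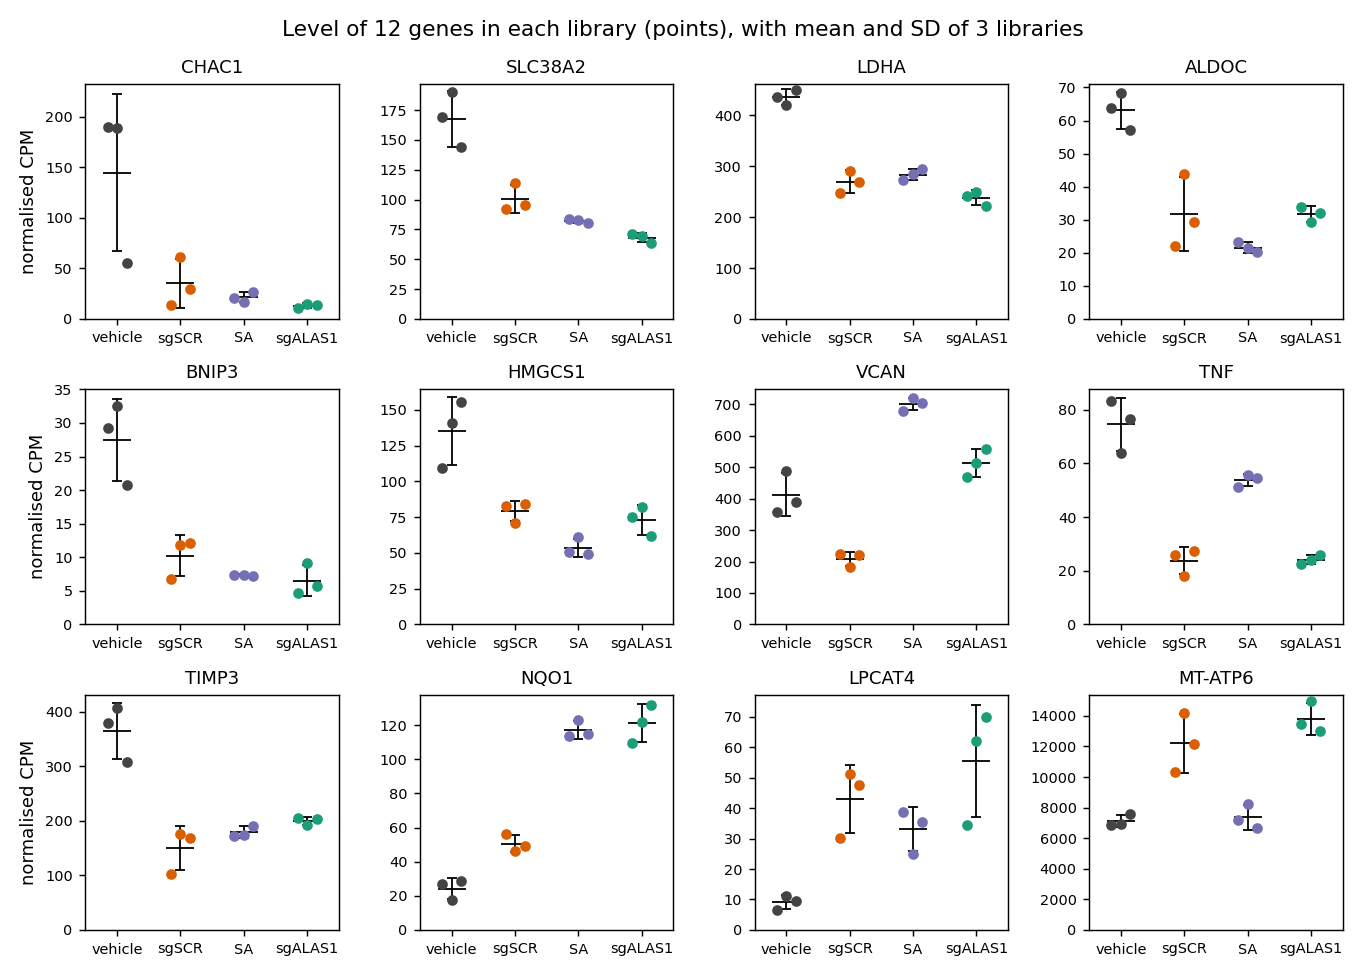
Normalised CPM (vertical axes, from 0) of 12 genes in each library of the 4 groups (horizontal axes); points are libraries, the horizontal bar is the mean and the whiskers the SD of 3 libraries. For LDHA the vehicle libraries lie between 421 and 451 CPM and the sgSCR libraries between 247 and 292 CPM, while for CHAC1 the third vehicle library, at 55 CPM, lies below the highest sgSCR library.

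Redox and protein-folding genes held a few single rises. NQO1 (chromosome 16), a quinone reductase switched on by NRF2, was at 26.8, 17.3 and 28.7 CPM in vehicle and 56.2, 46.5 and 49.3 CPM in sgSCR (1.06, SE 0.16, adjusted p = 1.68e-04), 2.08-fold higher. It was the 1 member of 22 NRF2 targets that rose, where 0.47% of all tested genes rose, and the list's median was 0.17. FTL, the light chain of the iron store ferritin, rose from 1382, 1170 and 1225 CPM to 2052, 1872 and 1591 CPM (0.55, adjusted p = 0.00316), 1 of 21 genes of heme breakdown and iron handling, and was not called without sgSCR replicate 1 (adjusted p = 0.0555). Of 20 cytosolic heat shock and chaperonin genes FKBP4, a co-chaperone of HSP90, and HSPB1, a small heat shock protein, rose by 0.68 and 0.65. An identifier on the other strand overlaps FKBP4. Their calls were lost without vehicle replicate 2 (FKBP4, adjusted p = 0.0675) or without sgSCR replicate 1 or 2 or vehicle replicate 2 or 3 (HSPB1, up to 0.177). The list's median of 0.04 turned to -0.03 when scaled by library totals.

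Growth and cell cycle lists held few calls. None of 79 cytosolic ribosomal protein genes and 27 ribosome biogenesis genes passed the test, with medians of 0.02 and 0.00. Of 30 replication genes 2 fell, among them RRM2, a ribonucleotide reductase subunit (-0.53), and the median was -0.15. The shares of all tested genes were 0.962% for falls and 0.47% for rises. Of 28 mitosis genes PTTG1, securin, and CKS2 rose (0.59 and 0.66). The calls of RRM2, PTTG1 and CKS2 were lost without sgSCR replicate 2 (adjusted p up to 0.204, 0.0536 and 0.157 over the single libraries left out). Of 26 p53 targets ZMAT3 rose (0.59), and PPM1D, a phosphatase, and PMAIP1, the cell death gene NOXA, fell (-0.93 and -0.77). None of these 3 was called without sgSCR replicate 1 (adjusted p up to 0.323 over the libraries left out). All 16 tested replication-dependent histone genes had negative values, with a median of -0.36, but none passed the test. MYC gave -0.16 (adjusted p = 0.736).

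The largest single rise among well-expressed genes was that of LPCAT4 (ENSG00000176454, chromosome 15), an acyltransferase of phospholipid remodelling. Its level was 6.62, 11.2 and 9.38 CPM in vehicle and 30.3, 51.3 and 47.8 CPM in sgSCR (2.27, SE 0.25, adjusted p = 2.98e-06), or 4.81-fold higher. The SA libraries stood at 38.9, 24.9 and 35.5 CPM and those of sgALAS1 at 34.6, 62 and 69.8 CPM, so that vehicle was the lowest group. RUBCNL, an autophagy gene, and NKD2, an inhibitor of Wnt signalling, rose by 1.38 and 1.25, and PPARA, the nuclear receptor of fatty acid oxidation, BCAT2, the mitochondrial branched-chain aminotransferase, and KYAT1 by 1.24, 1.15 and 1.12. None of these 5 calls held without sgSCR replicate 1 (adjusted p up to 0.0837, 0.287, 0.107, 0.104 and 0.241 over the libraries left out). RUBCNL and the pseudogene PPP1R2P4 (1.41) share their position and strand and carried nearly the same reads.

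Among the largest falls, TIMP3 (chromosome 22), an inhibitor of matrix metalloproteases, was at 379, 407 and 308 CPM in vehicle and 103, 177 and 169 CPM in sgSCR (-1.28, SE 0.15, adjusted p = 3.24e-06). SA, at 172, 174 and 191 CPM, and sgALAS1, at 206, 192 and 203 CPM, also lay below vehicle. PDGFA, a growth factor, the receptor gene OSMR and NT5E, the surface enzyme CD73, fell by 1.55, 1.32 and 1.32 on the log2 scale, of which NT5E was not called without sgSCR replicate 1 (adjusted p = 0.0688). CD3D, a T-cell receptor chain that is not a marker of this line, was at 15.4, 12.2 and 12.7 CPM against 5.18, 4.18 and 5.62 CPM (-1.43, adjusted p = 0.0467), and its call was lost with each library left out (adjusted p up to 0.21). Of the 15 lymphoid markers 4 were testable, and their summed level was 103, 91.1 and 79.3 CPM in vehicle and 93, 111 and 85.6 CPM in sgSCR.

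Some of the lowest-expressed genes had the largest fitted changes and were picked out after their values were seen. Such genes can pass the low-count filter only through the group where they are high. A call was then favoured in advance, and the adjusted p-values are given as description. OCSTAMP, a membrane protein of osteoclast fusion, was at 9.24, 6.43 and 6.02 CPM in vehicle and 0.398, 0.804 and 0.661 CPM in sgSCR (-3.48, SE 0.65, adjusted p = 0.00299). It was at most 0.973 CPM in SA and at 0 in sgALAS1, so it passed the filter through vehicle alone. The Fc receptor genes FCGR2B and FCGR2C fell by 2.25 and 2.76 on the log2 scale, but they are near-identical copies and reads could be split between them. LINC00173, a long non-coding RNA, was at 0, 0.169 and 0.531 CPM in vehicle and 5.38, 4.98 and 3.64 CPM in sgSCR (adjusted p = 0.00277). Only 1 of 13 stromal and epithelial markers was testable, COL1A2, which fell by 2.12, and the summed level of these markers was 7.45, 7.79 and 9.91 CPM in vehicle and 1.2, 3.86 and 3.14 CPM in sgSCR. The COL1A2 call was lost without any 1 of sgSCR replicates 1 and 3 and the 3 vehicle replicates (adjusted p up to 0.219). By chromosome, the mitochondrial genome had the median farthest from that of all genes, 0.35 over 37 genes, and the nuclear medians lay between -0.02 (chromosome 5) and 0.07 (chromosome 19).

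The guide-arm and drug-arm libraries can be compared once more without sharing a library, as sgALAS1 against SA. There the guide, doxycycline and days differ as between sgSCR and vehicle, but the 2 treatments differ too, so it is no repeat of the first comparison. In it 545 genes passed the test (3.94%), 232 higher (1.68%) and 313 lower (2.26%) in sgALAS1. Both comparisons called 42 genes, which is 21.2% of the 198 and 7.71% of the 545. LYZ with its antisense identifier and WDR74 with RNU2-2P are overlapping pairs among the 42. Of the 42, 40 had the same direction, 16 higher and 24 lower, the exceptions being NKD2 and ZNF117. Of the 198 genes 145 (73.2%) had the same sign in both comparisons, against 55.6% of all tested genes.

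Genes called in both comparisons came from several of the groups above. TNF fell by 1.65 in sgSCR against vehicle and by 1.16 in sgALAS1 against SA (adjusted p = 2.98e-05), with 51.1, 55.7 and 54.6 CPM in SA and 22.5, 23.8 and 25.9 CPM in sgALAS1. LST1 (-0.98 and -1.18), VCAN (-0.98 and -0.45), CYBB (-0.89 and -0.67) and LYZ (-0.73 and -0.50) were lower in both. In the maturation list 10 of 33 members fell in the second comparison, with a median of -0.40, where 2.26% of all tested genes fell. MT-ATP6 was at 7174, 8249 and 6663 CPM in SA and 13440, 14970 and 12990 CPM in sgALAS1 (0.91, adjusted p = 1.26e-06), and MT-CYB also rose there (0.54). For both genes the 6 guide-arm libraries lay above the 6 drug-arm libraries. Over the 13 mitochondrially encoded mRNAs the median in sgALAS1 against SA was 0.03, with 2 rises and 0 falls (1.68% and 2.26% of all tested genes). MT-TH fell in both comparisons (-0.55 and -0.67), as did RRM2 (-0.53 and -0.66), SLC38A1 (-0.83 and -0.83) and TPI1 (-0.54 and -0.39). Among the rises, SCARNA9, a guide RNA of RNA modification, was at 1.01 and 1.64, and CPM, a membrane carboxypeptidase, at 1.12 and 1.08. Of AKR1C3, an aldo-keto reductase, vehicle held 2.07, 2.54 and 1.95 CPM and sgSCR 10.2, 9.16 and 4.3 CPM, with changes of 1.83 and 1.68.

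**Figure D5:**
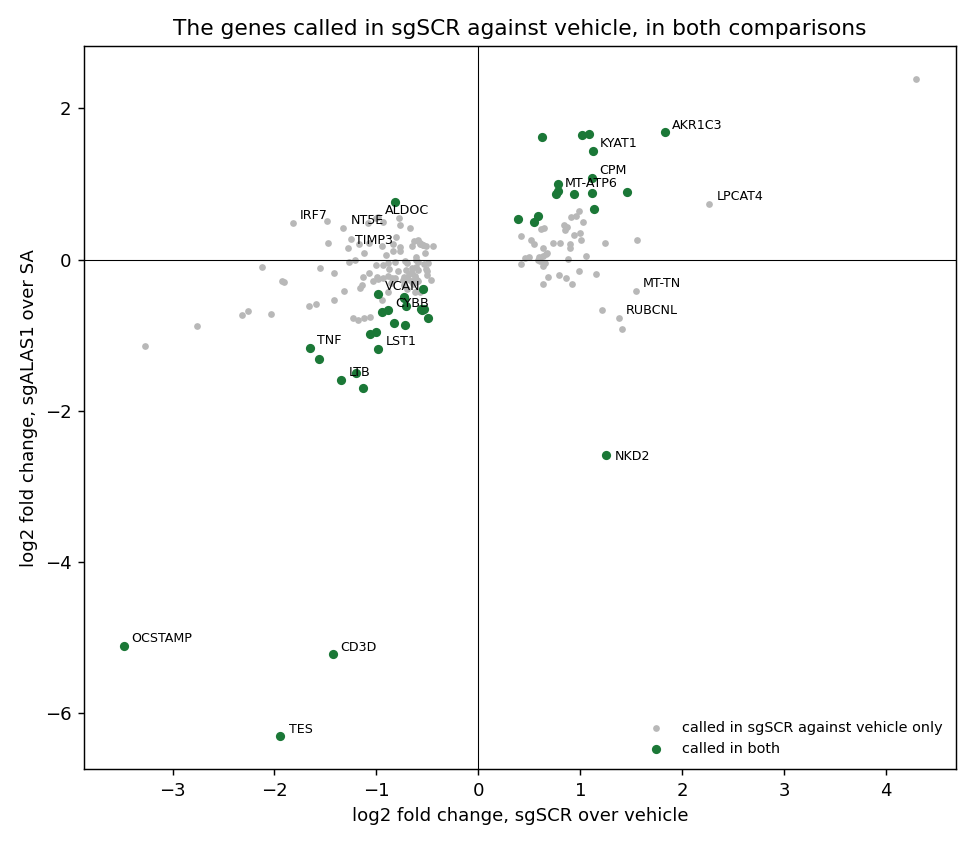
The 198 genes called in sgSCR against vehicle, by their log2 fold change there (horizontal axis) and in sgALAS1 against SA (vertical axis), which share no library; green points were called in both. Of the 42 green points 24 are lower in both and 16 higher in both, and those below -5 on the vertical axis are genes with no read in sgALAS1, whose fitted size there is not a measure of fold.

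Other lists had medians of either sign in the second comparison. There the stress regulators had a median of 0.07 with 1 fall and 2 rises, the hypoxia genes outside glycolysis 0.20 with 0 falls and 2 rises, and the cholesterol genes 0.15 with 0 falls and 2 rises. Amino acid synthesis enzymes (0.15) and cytosolic synthetases (0.02) had 0 calls. Negative medians were those of glycolysis (-0.09, 1 fall), amino acid transporters (-0.14, 1 fall), fatty acid genes (-0.02, 1 fall) and NF-kB genes (-0.22, 2 falls), each with 0 rises. Over all tested genes 2.26% fell and 1.68% rose in sgALAS1 against SA. SA, the base of that comparison, was itself set against vehicle, which shares the vehicle libraries with sgSCR against vehicle. In SA 11 of the 26 stress regulators fell and 2 rose, and 10 of the 20 hypoxia genes and 12 of the 24 cholesterol genes fell with 0 rises. Over all tested genes 6.24% fell and 4.83% rose there. No difference between comparisons was tested for a list as a whole. Gene by gene the difference was tested, and 164 of the 13832 genes passed, 38 of them among the 198. The 198 were called by the first comparison, which enters the difference, so passing was favoured in advance for them. HMGCS1 was among the 38, at -0.77 against 0.45 (adjusted p of the difference = 6.16e-04). Its level was 50.3, 60.9 and 49.3 CPM in SA and 75.3, 82 and 61.6 CPM in sgALAS1. ALDOC was at -0.99 against 0.56 (8.21e-04) and TIMP3 at -1.28 against 0.16 (4.43e-05). For CHAC1, at -2.03 and -0.72, the difference did not pass the test (adjusted p = 0.277), nor did it for MT-ATP6 (0.809) or LDHA (0.189).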

How the data were processed

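QuantSeq libraries of poly(A) RNA were sequenced, per the labels' protocols. Per the submitters' processing notes, bcl2fastq 2.17.1.14, cutadapt 1.14, HISAT2 2.0.4, featureCounts of Subread 2.0.0, edgeR 3.34.0, limma 3.48.3 and hg19 were used; neither annotation release nor strand setting is given in the sources used here. Each deposited value is a raw count of reads for 1 Ensembl identifier, used unchanged, with columns matched to samples by the names in the labels. Library totals were 4658513 to 7339843 reads, which limits precision for low genes. Of 57905 identifiers 51996 were named by a current gene table, 342 by GENCODE 29, and 5567 had no name.

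In R 4.3.3, edgeR 4.0.16 fitted all 12 libraries by group (TMM, filterByExpr, quasi-likelihood F-test, two-sided, Benjamini-Hochberg adjustment over 13832 genes; biological coefficient of variation 16.4%); DESeq2 1.42.0 was an alternative. A SE is the log2 fold change divided by the square root of F. Same-numbered vehicle and sgSCR libraries were not paired by the labels, and no block was used.

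The 44 gene lists, the tests and the members described were chosen with earlier results of these data known, so counts over lists are descriptions and no list was tested as a set. Named genes are the 12 largest rises and falls among called, named genes without overlap and with log2 CPM averaging at least 3, up to 4 called members of each list by smallest p and any against the list's majority, the heme synthesis genes and a few fixed genes; others are said to be chosen after their values were seen, as are the genes given for sgALAS1 against SA and further called list members. A few genes that the rule names are not reported here. Promoters were the 250 bases before the start in RefSeq on GRCh38.p14, and intervals of promoters are not in hg19. Alternatives were other scalings, filters and tests, a replicate block, and each library left out.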

Additional observations from a re-analysis of the deposited data

Results flagged for a closer look

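For 19 of the named genes the gap between sgSCR and vehicle differed from the gap between sgALAS1 and SA by a test of the difference itself (edgeR, adjusted p under 0.05). Of all 13832 tested genes 164 passed. Most named genes were chosen by the first gap, which enters the difference, so passing was favoured in advance for them. The values are log2 differences of the first gap minus the second. Genes with a lower first gap were IRF7 (-2.31), NT5E (-1.74), ALDOC (-1.54), TIMP3 (-1.44), EGR1 (-1.25), HMGCS1 (-1.22), BNIP3L (-1.04), FDPS (-0.874) and SCD (-0.781). Genes with a higher first gap were CHCHD10 (0.625), FKBP4 (0.906), NQO1 (1.01), LPCAT4 (1.53), the mitochondrial tRNA genes MT-TA (1.87) and MT-TN (1.96), RUBCNL (2.15), the pseudogene PPP1R2P4 in the same place (2.33) and NKD2 (3.83). ALAS1 (2.16) differed too, since SA stood at 106, 102 and 111 CPM and sgALAS1, whose guide targets it, at 26.2, 26.4 and 27.3 CPM. NKD2 was at 31.7, 22.7 and 18 CPM in sgSCR and at most 0.909 CPM in sgALAS1.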

How the results depend on the processing

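For sgSCR against vehicle (198 genes, 65 higher and 133 lower) the test against a 1.5-fold change called 13 (4 and 9), library totals without TMM 202 lower and DESeq2 104 higher. Leaving out 1 library gave 86 to 278 genes in all, 28 to 119 higher and 58 to 159 lower. For sgALAS1 against SA (545) the 1.5-fold test called 95 and single libraries left out 287 to 493; for the difference of the comparisons (164) no low-count filter gave 277, the 1.5-fold test 68 and libraries left out 106 to 343. With the replicate number as a replicate block, 266 genes were called in sgSCR against vehicle, all 198 among them, and 659 in sgALAS1 against SA; the residuals of same-numbered vehicle and sgSCR libraries correlated at 0.0261 to 0.0917, and vehicle replicate 2 was most like sgSCR replicate 3 (0.0515). UROD turned to 0.000341 with a minimum of 30 reads and FECH to -0.0151 with library totals. With libraries left out, UROD lay between -0.245 and 0.16, FECH between -0.0641 and 0.189 and ALAD between -0.0695 and 0.26. Of 77 named called genes 36 lost their call without sgSCR replicate 1 and 26 without vehicle replicate 2. The cause was not tested. Depth limits genes of a few reads per library.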
